A study of Mus musculus with 6 samples.

Results

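The genes described here are 7 intermediate filament genes, chosen by name: Vim, Nes, Gfap and Des, whose products lie in the cytoplasm, and the nuclear lamins Lmna, Lmnb1 and Lmnb2. All 7 were among the 12151 genes of the deposited table and all 7 passed the filter on low values, a mean of at least 1 CPM. CPM is the read count of a gene scaled by the authors to the size of its library. The study compared mouse glioma cells of 2 names, mNS and GL261, each grown in its own medium, with 3 RNA-seq libraries each. The cells named mNS grew as neurospheres in serum-free DMEM/F12 with B-27, basic FGF, EGF and heparin; they are labelled as stem-like glioma cells and were taken at passages 72, 77 and 85. GL261, a mouse glioma line, grew in DMEM with fetal bovine serum, is labelled as differentiated glioma cells and was taken at passages 17, 33 and 34. The passage field of the last of these reads 33, while its title reads 34. The line, its medium and its passage range differ at once between the groups and cannot be told apart. Rise and fall below mean higher and lower in mNS than in GL261. Beyond the passage, the labels do not tell whether the 3 libraries of each line are independent cultures. The p-values therefore measure the spread between these libraries, which takes in any difference between passages and may otherwise be technical.

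Intermediate filaments are rope-like polymers that give cells mechanical strength. The cytoplasmic ones differ by cell type: vimentin is the filament protein of mesenchymal and many immature cells, nestin joins vimentin in neural progenitors, GFAP is typical of astrocytes and desmin of muscle cells and pericytes. Lamins form the meshwork under the inner nuclear membrane. B-type lamins, from Lmnb1 and Lmnb2, stay attached to the membrane by a farnesyl group and are made by nearly all cells. The A-type lamins A and C, spliced from the single gene Lmna, are scarce in many stem cells. GFAP-positive and vimentin-positive filaments are common in astrocytic tumours.

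Between 12534422 and 14225175 reads per library fell in the listed genes, and 1 read was worth 0.0708 to 0.0773 CPM. Across the 12006 genes tested, libraries correlated at 0.987 to 0.997 within a group and at 0.845 to 0.856 between groups (Pearson's r of log2(CPM + 1) across genes, which are not independent replicates). A gene was called at a Benjamini-Hochberg adjusted p under 0.05 in limma, and 64.3% of those tested passed, 32.2% in the direction of mNS and 32.1% in that of GL261. On the recovered reads, edgeR's quasi-likelihood test called 63.7% (32% higher and 31.7% lower in mNS) and DESeq2 called 61.2% (30.9% higher and 30.3% lower). The groups did not overlap for 69.9% of tested genes, with mNS higher for 34.7% and lower for 35.2%.

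Of the 7 genes, 6 were lower in mNS and 1, Des, was higher; all were called, and in all 7 the groups did not overlap. With the shares of all tested genes given above, a call or a gap between the groups is in itself common here, and the sizes carry the description. The median log2 difference of the 7 genes was -0.94, against -0.0027 over all tested genes. In these bulk libraries fewer cells making a transcript and less of it per cell cannot be told apart.

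**Figure D1:**
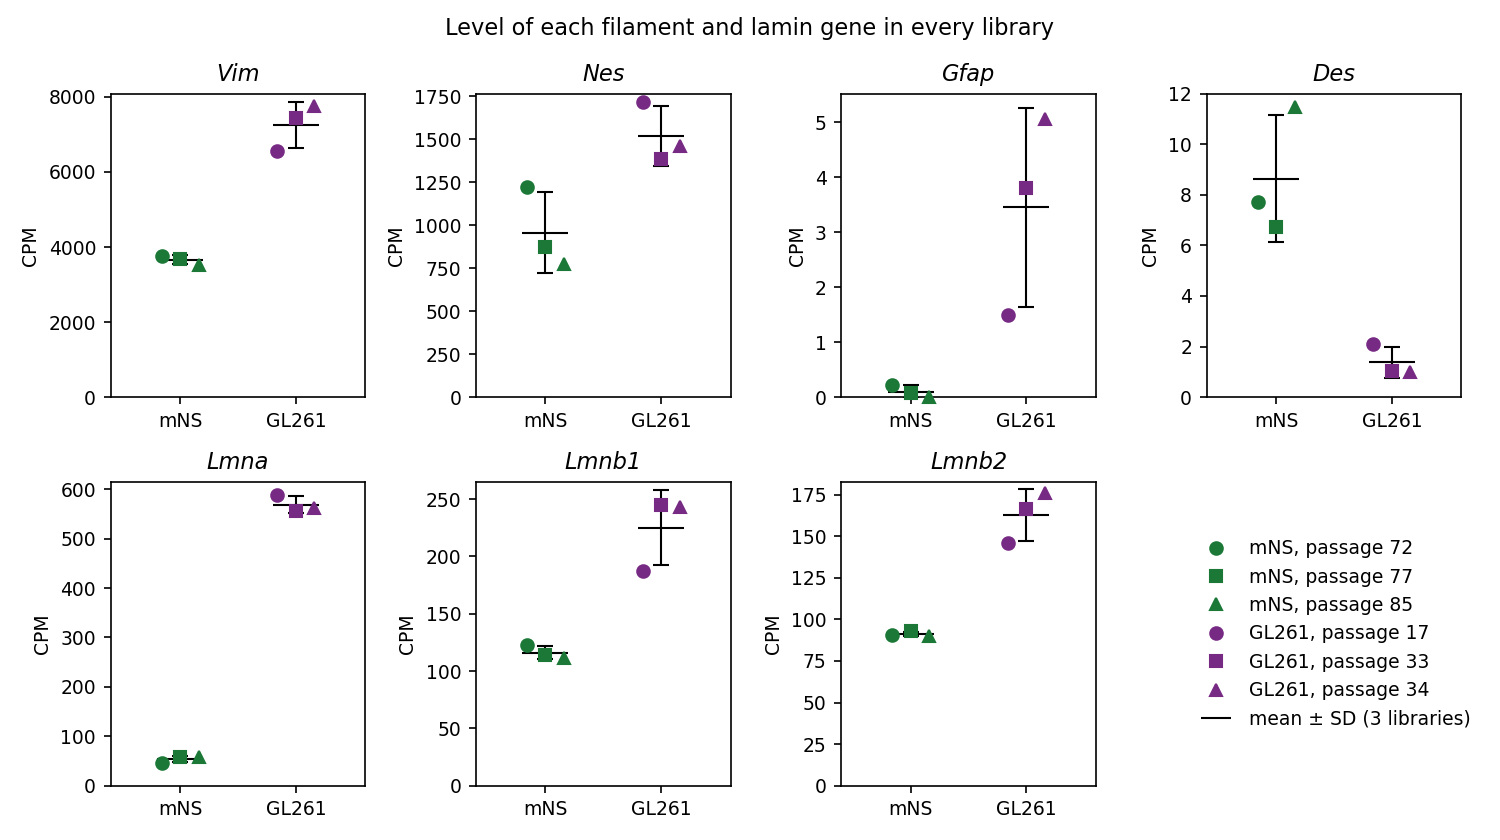
Level of each of the 7 genes in CPM (vertical axis, linear, from 0, a separate scale in each panel), with mNS libraries at the left and GL261 libraries at the right of each panel. Points are single libraries, with symbols for the passage, and black bars are the mean ± SD of 3 libraries. In all panels but that of Des the mNS points lie lower, and in that of Lmna they lie between 46.2 and 58.9 CPM, against 556 to 588 CPM in GL261.

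The A-type lamin gene had the largest difference of the 7 on the log2(CPM + 1) scale, whereas Gfap, at a few reads, had the larger one by edgeR (log2 -4.99, against -3.39 for Lmna), by DESeq2 and with a pseudocount of 0.1 CPM. Lmna (ENSMUSG00000028063.15, chromosome 3, 88480147 to 88509956, minus strand in GRCm38) stood at 46.2, 57.3 and 58.9 CPM in mNS at passages 72, 77 and 85, against 588, 556 and 562 CPM in GL261 at passages 17, 33 and 34. All mNS libraries were low and all GL261 libraries high, with little spread within either group. The means were 54.1 ± 6.92 CPM in mNS and 569 ± 16.8 CPM in GL261 (SD, n = 3 each), 10.5-fold lower in mNS (log2 difference -3.38 ± 0.09 SE; limma adjusted p = 3.10e-08). In all, 150 of the tested genes, or 1.25%, were called with a difference at or below this value. The counts are per gene and do not separate the messages of lamin A and lamin C.

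The B-type lamins fell less. Lmnb1 (ENSMUSG00000024590.8, chromosome 18, 56707813 to 56753424) had 122, 114 and 112 CPM in mNS, against 187, 244 and 243 CPM in GL261. The passage 17 library lay below the later GL261 passages but above every mNS library. Its means were 116 ± 5.67 CPM in mNS and 225 ± 32.6 CPM in GL261 (log2 difference -0.94 ± 0.10, limma adjusted p = 7.30e-05). Lmnb2 (ENSMUSG00000062075.13, chromosome 10, 80901203 to 80918245, minus strand) had 90.9, 92.8 and 90.3 CPM in mNS, against 146, 167 and 176 CPM in GL261. The mNS libraries were nearly level, and passage 17 was again the lowest of GL261. The means were 91.3 ± 1.31 CPM in mNS and 163 ± 15.4 CPM in GL261 (log2 difference -0.82 ± 0.08, limma adjusted p = 2.64e-05).

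Set against each other per kilobase of merged exons, the lamins changed order. In mNS the order was Lmnb1 (39.1 ± 1.91 CPM per kb), Lmnb2 (21.3 ± 0.305) and Lmna (9.27 ± 1.18), and in GL261 it was Lmna (97.4 ± 2.87 CPM per kb), Lmnb1 (75.9 ± 11.0) and Lmnb2 (38.0 ± 3.603). The libraries of neighbours in either order did not overlap. Lmna made up 11.2%, 14.05% and 14.7% of the summed lamin level in mNS, against 50.9%, 43.9% and 43.9% in GL261. The sum itself was 69.7 ± 0.805 CPM per kb in mNS and 211 ± 11.7 CPM per kb in GL261. The ratio of Lmna to Lmnb1 plus Lmnb2 was 0.127, 0.163 and 0.172 in mNS, against 1.03, 0.784 and 0.783 in GL261, without overlap (log2 difference -2.49, two-sided exact permutation test p = 0.1, the smallest that 3 against 3 libraries allow; adjusted p = 0.3 over 3 ratios). The ratio of Lmnb1 to Lmnb2 was 1.95, 1.77 and 1.79 in mNS, against 1.86, 2.12 and 1.998 in GL261, and overlapped (log2 difference -0.12, exact permutation p = 0.2, adjusted p = 0.3). Shares and ratios between genes, here and below, depend on the length used. Merged exons and longest transcript are 5838 and 3948 bases for Lmna, 2962 and 2843 for Lmnb1, and 4286 and 3531 for Lmnb2. By longest transcript Lmna takes a larger share, so whether it exceeds the B-type sum in GL261 depends on the length. The order of the lamins in each group was the same by that length, and the log2 difference of the Lmna ratio was -2.50.

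**Figure D2:**
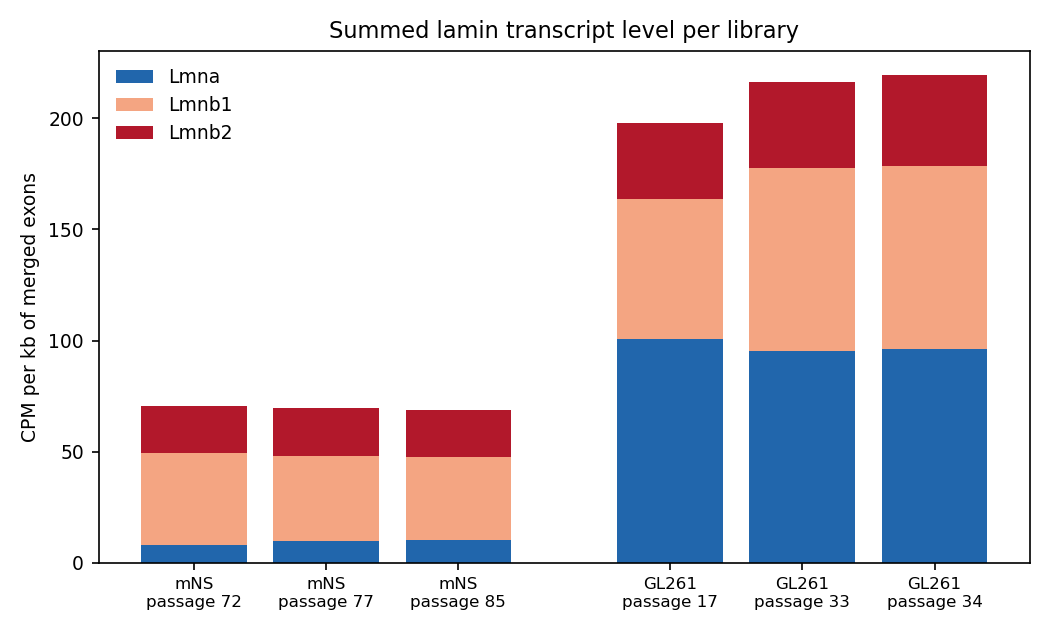
Lamin transcript level per library, in CPM per kilobase of merged exons (vertical axis, linear, from 0), with Lmna, Lmnb1 and Lmnb2 stacked; mNS libraries are at the left and GL261 libraries at the right, each marked by passage. The bars add up to 69.7 CPM per kb on average in mNS and 211 CPM per kb in GL261, and the Lmna segment at the base is 13.3% of the bar on average in mNS and 46.2% in GL261.

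Vim (ENSMUSG00000026728.9, chromosome 2, 13573927 to 13582826) was the most abundant of the 7 genes per kilobase in each group. It stood at 3763, 3682 and 3533 CPM in mNS, against 6569, 7440.2 and 7761 CPM in GL261. The mNS libraries lay close together and passage 17 was the lowest of GL261. The group means were 1.98-fold apart (log2 difference -0.98 ± 0.08, limma adjusted p = 7.69e-06). Nes (ENSMUSG00000004891.16, chromosome 3, 87971078 to 87980451), the nestin gene, had 1222, 871 and 773 CPM in mNS at passages 72, 77 and 85, against 1715, 1382 and 1458 CPM in GL261 at passages 17, 33 and 34. The earliest passage held the highest value in either group, and passage 72 of mNS came within 160 CPM of passage 33 of GL261. The means were 955 ± 236 CPM in mNS and 1518 ± 175 CPM in GL261 (log2 difference -0.69 ± 0.16, limma adjusted p = 0.00472).

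Vimentin and nestin can assemble into the same filaments, so their messages were set against each other. The ratio of Vim to Nes per kilobase was 4.16, 5.72 and 6.19 in mNS, against 5.18, 7.28 and 7.20 in GL261, and the groups overlapped (log2 difference -0.29, exact permutation p = 0.3, adjusted p = 0.3). With 3 against 3 libraries this test could not have passed a threshold of 0.05 for any of the 3 ratios. Summed per kilobase, the 4 cytoplasmic filament genes came to 923 ± 59.3 CPM per kb in mNS and 1768 ± 107 CPM per kb in GL261, of which Vim made up 83.7% ± 2.86 in mNS and 86.5% ± 2.33 in GL261.

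Gfap and Des were scarce in both cell forms and went opposite ways. Gfap (ENSMUSG00000020932.14, chromosome 11, 102887336 to 102900912, minus strand) had 3, 1 and 0 reads in the mNS libraries (0.226, 0.0773 and 0 CPM), against 20, 51 and 70 reads in the GL261 libraries (1.49, 3.81 and 5.06 CPM). All mNS values were at a few reads, and within GL261 passage 17 was lowest. The pooled ratio of GL261 over mNS was 34.96, with an exact 95% interval of 13.4 to 130.1 that covers counting error only (Clopper-Pearson; log2 difference -1.93 ± 0.31, limma adjusted p = 0.000608). The ratio of mean CPM was 34.1, and 89.3 without mNS replicate 1. Since 1 mNS library had no Gfap read, no ratio of Gfap to Vim was tested.

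Des (ENSMUSG00000026208.9, chromosome 1, 75360329 to 75368579), the desmin gene, had 102, 87 and 162 reads in mNS (7.70, 6.73 and 11.5 CPM), against 28, 14 and 14 reads in GL261 (2.09, 1.05 and 1.01 CPM). Passage 85 was the highest of mNS and passage 17 the highest of GL261, with a clear gap between the groups. The mean was 6.25-fold higher in mNS (log2 difference 2.01 ± 0.23, limma adjusted p = 9.20e-05). Per kilobase Des ranked above Gfap in mNS without overlap; in GL261 their libraries overlapped. An antisense gene, Gm15179, shares 220 bases or 5.86% of the merged exons of Des, and since the sources used here do not say whether reads were counted by strand, reads in that stretch cannot be told apart.

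Markers of the muscle and perivascular cells that usually make desmin were set beside it. Of 12 skeletal muscle genes 3 were analysed here and the other 9, among them Myod1 and Myog, were not. The sarcomere gene Myh3 (13.5, 5.10 and 8.92 CPM in mNS, against 0.373, 0.448 and 0.289 CPM in GL261) and the titin gene Ttn (7.86 ± 5.01 CPM in mNS and 1.64 ± 0.945 CPM in GL261) were higher in mNS. The transcription factor gene Mef2c was lower (7.31 ± 3.03 CPM in mNS and 88.6 ± 9.31 CPM in GL261). The summed level of the 3 was 20.7 to 30.9 CPM in mNS and 84.2 to 101 CPM in GL261, while without Mef2c it was 11.2 to 27.03 CPM in mNS and 1.19 to 2.96 CPM in GL261. Of 10 pericyte and smooth muscle genes 5 were analysed here and all were called, as were 64.3% of all tested genes. Of the 5, 4 were lower in mNS and 1, Notch3, was 9.35-fold higher (21.1-fold without GL261 replicate 2). Their sum was 3.25 to 3.402 CPM in mNS and 48.1 to 54.3 CPM in GL261. Without Acta2, the smooth muscle actin gene, it was 2.83 to 3.32 CPM in mNS and 25.1 to 28.5 CPM in GL261. Acta2 had 11 reads over the mNS libraries and 993 over the GL261 libraries. Pdgfrb, the pericyte receptor gene, had 5 and 98. The part of such cells in the level of Des was not tested. The ratio of mean CPM of Ttn moved from 4.80 to 3.08 without mNS replicate 1.

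The promoter sequences of 6 of the 7 genes were matched by symbol in RefSeq (GRCm38.p6). Those of 3 genes are shown because they span the range of differences: Lmna with a large fall, Lmnb2 with a smaller one and Des with the rise. Each is given on the gene's own strand, 5′ to 3′, up to 250 bases before the first listed start and without bases that GENCODE places in an exon. The Lmna stretch lies inside the annotated gene, whose 5′ end on the minus strand is 88509956. It therefore precedes an internal start and not the outermost one.
Lmna promoter (chr3:88503387-88503602, minus strand): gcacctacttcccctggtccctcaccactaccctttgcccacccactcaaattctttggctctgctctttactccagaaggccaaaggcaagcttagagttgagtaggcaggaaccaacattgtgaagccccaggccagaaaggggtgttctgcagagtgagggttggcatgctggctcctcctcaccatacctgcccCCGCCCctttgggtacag
Lmnb2 promoter (chr10:80918246-80918495, minus strand): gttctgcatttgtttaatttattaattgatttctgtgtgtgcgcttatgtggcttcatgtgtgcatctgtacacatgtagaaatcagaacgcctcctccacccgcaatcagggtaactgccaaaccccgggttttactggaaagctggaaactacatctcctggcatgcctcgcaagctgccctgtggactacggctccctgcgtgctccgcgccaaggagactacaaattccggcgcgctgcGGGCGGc
Des promoter (chr1:75360042-75360291, plus strand): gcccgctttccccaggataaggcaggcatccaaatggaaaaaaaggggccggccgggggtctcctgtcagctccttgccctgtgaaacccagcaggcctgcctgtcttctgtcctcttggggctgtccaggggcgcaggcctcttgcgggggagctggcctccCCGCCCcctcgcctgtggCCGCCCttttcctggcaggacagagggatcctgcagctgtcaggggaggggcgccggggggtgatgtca
Capitals mark matches on either strand to any of 5 motifs: the GC box GGGCGG, the AP-1 motif TGANTCA, the CCAAT box CCAAT, the STAT motif GAS TTCNNNGAA and the TATA box TATAAA, none of which contains another. The 3 stretches hold only GC boxes, the motif bound by Sp1-type factors. In the full windows of 250 bases before the first listed start a GC box was found for 4 of the 6 genes (Lmna, Lmnb2, Des and Nes) and in 32.7% of all 32851 windows. A CCAAT box and a TATA box were each found in 1 of the 6, Vim, against 33.8% and 12.4% of all windows. The AP-1 and GAS letters were in none of the 6 windows, against 6.75% and 7.02% of all. RefSeq lists a second start for Lmna and for Lmnb2; neither of those windows held a GC box, and that of Lmna held a CCAAT box. A match is a description and not a bound site, and the GC box stood before genes that fell and before the gene that rose.

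**Figure D3:**
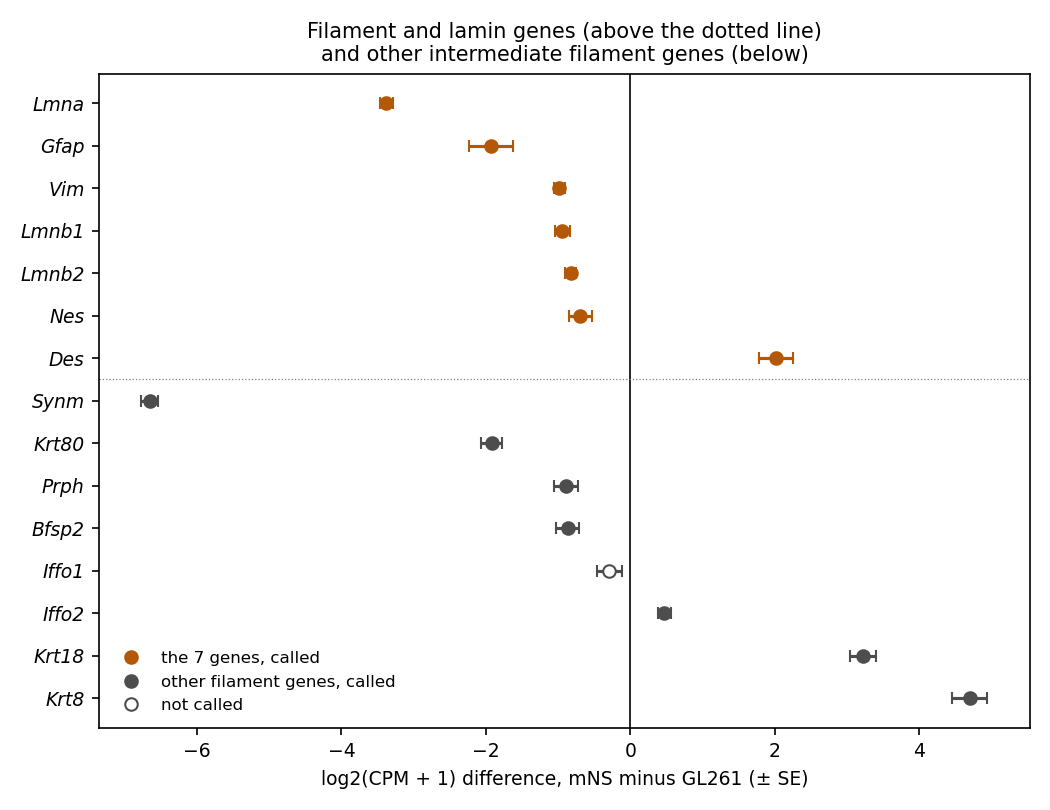
Difference in log2(CPM + 1), mNS minus GL261 (horizontal axis), with its SE, for the 7 genes above the dotted line and for 8 other intermediate filament genes below it; filled points were called in limma. Lmna lies at -3.38 and Des at 2.01, and among the other filament genes the values run from -6.65 for Synm to 4.70 for Krt8.

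Among other intermediate filament genes, listed with earlier results of these data known, 8 of 21 were analysed here; 3 rose, 4 fell and 1 was not called (64.3% of all tested genes were called). Synm encodes synemin, a large filament protein that cannot form filaments alone and joins vimentin or desmin. It had 1, 0 and 2 reads in mNS (0.0755, 0 and 0.142 CPM), against 116, 107 and 97.3 CPM in GL261. The pooled ratio of GL261 over mNS was 1433, with an exact 95% counting interval of 490.0 to 6951 (log2 difference -6.65, limma adjusted p = 5.33e-09); the ratio of mean CPM moved from 1475 to 2828 without mNS replicate 3. Krt80, an epithelial keratin gene, had no read in any mNS library and 2.83, 2.77 and 2.75 CPM in GL261, or at least 12.4-fold lower in mNS if each mNS library is given 3 reads. The neuronal filament gene Prph (30.9 ± 7.58 CPM in mNS and 56.8 ± 4.02 CPM in GL261) and the lens filament gene Bfsp2 (1.19 ± 0.277 CPM in mNS and 2.98 ± 0.332 CPM in GL261) completed the falls; both were named after their values were seen.

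The keratins that pair in simple epithelia rose together. Krt8 had 52.5, 34.9 and 28.0 CPM in mNS, against 0.745, 0.149 and 0.578 CPM in GL261, 78.3-fold higher by the means (log2 difference 4.70, limma adjusted p = 7.67e-07). Krt18, which encodes its partner, had 10.7, 7.58 and 7.08 CPM in mNS and no read in any GL261 library, or at least 38.2-fold higher in mNS if each GL261 library is given 3 reads (log2 difference 3.22, limma adjusted p = 9.76e-07). Both were highest at passage 72 of mNS. Krt8 has an annotated pseudogene, Krt8-ps, and reads shared with it could not be told apart. The third riser, Iffo2, named after its value was seen, had 129.8 ± 10.0 CPM in mNS and 93.3 ± 8.70 CPM in GL261. Ina, Nefl, Nefm and Nefh, the neurofilament genes, were not analysed here.

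Crosslinkers tie filaments to each other, to junctions and to the nucleus. Of 8 tested, 2 rose, 3 fell and 3 were not called (62.5% called, against 64.3% of all tested genes). Their median log2 difference was -0.04. Plec, the gene of plectin, which binds vimentin to actin and to the nuclear envelope, fell to 543 ± 23.2 CPM in mNS, against 924 ± 63.3 CPM in GL261 (log2 difference -0.77, limma adjusted p = 1.59e-05). Pkp2, a desmosomal plakophilin gene, fell to 32.5 ± 2.94 CPM in mNS, against 72.7 ± 9.72 CPM in GL261. The third fall was Macf1, named after its value was seen. Ppl, the periplakin gene, rose to 14.9 ± 5.24 CPM in mNS, against 4.50 ± 2.17 CPM in GL261. Jup, the plakoglobin gene, also rose (17.998 ± 1.81 CPM in mNS and 11.4 ± 3.86 CPM in GL261, limma adjusted p = 0.0188), but its call was lost without GL261 replicate 2 (adjusted p = 0.0707), GL261 replicate 3 (0.0711) or mNS replicate 1 (0.0588). The abundant Dst, gene of a plakin, had 1341 ± 73.7 CPM in mNS and 1303 ± 177 CPM in GL261 and was not called.

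All 15 genes listed as lamina partners were measured. Their products bind lamins, tether chromatin to them or work with such proteins. Some are membrane proteins and others, such as that of Banf1, are soluble. Of these genes 4 rose, 9 fell and 2 were not called (86.7% called, against 64.3% of all tested genes). Their median log2 difference was -0.39. The largest falls were those of Tor1aip1 and Tor1aip2, which encode the activators of torsin ATPases LAP1 and LULL1; LAP1 binds lamins. Tor1aip1 had 30.2, 26.3 and 25.8 CPM in mNS, against 95.4, 89.8 and 89.2 CPM in GL261. Tor1aip2 had 122, 119 and 116 CPM in mNS, against 326, 349 and 342 CPM in GL261. On chromosome 1 these genes overlap (Tor1aip1 up to 156036480, minus strand, and Tor1aip2 from 156035403, plus strand). Whether their exons are shared was not tested, and reads there cannot be told apart if strand was ignored. Emd, the gene of emerin, which is held at the membrane by A-type lamins, fell to 36.6 ± 3.61 CPM in mNS, against 76.4 ± 10.9 CPM in GL261 (log2 difference -1.04, limma adjusted p = 7.28e-05). Nrm, the nurim gene, fell 1.88-fold.

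Lbr, which encodes the lamin B receptor, a tether that works beside A-type lamins, went the other way. It had 270.0, 312 and 319 CPM in mNS, against 208, 231 and 229 CPM in GL261 (log2 difference 0.43, limma adjusted p = 0.00139). Banf1, whose small product bridges DNA and LEM-domain proteins, also rose (114 ± 11.6 CPM in mNS and 74.3 ± 6.23 CPM in GL261). The other risers were Lemd2 and, at a limma adjusted p of 0.0497, Ankle2, which was not called by edgeR (adjusted p = 0.0522) or DESeq2 (0.0748). These 4 genes were named after their values were seen.

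The LINC complex spans the nuclear envelope and joins lamins to the cytoskeleton. Of its 8 genes and torsins tested, 2 rose, 1 fell and 5 were not called, with a median log2 difference of 0.05. That is 37.5% called, below the 64.3% of all tested genes. Sun1 and Sun2, the genes of the inner membrane partners that touch the lamina, were not called: Sun1 had 141 ± 9.26 CPM in mNS and 127 ± 7.16 CPM in GL261, and Sun2 63.4 ± 6.31 CPM in mNS and 66.2 ± 11.7 CPM in GL261. Syne3, the gene of nesprin-3, which binds plectin and through it vimentin filaments, fell to 12.6, 19.0 and 18.9 CPM in mNS, against 41.3, 56.5 and 71.8 CPM in GL261 (log2 difference -1.68, limma adjusted p = 0.000168). Syne1, the gene of the actin-binding nesprin-1, rose to 147 ± 14.1 CPM in mNS, against 92.0 ± 14.7 CPM in GL261. The scarce Syne4 had 6.34, 2.24 and 1.06 CPM in mNS, against 0.745, 0.897 and 0.361 CPM in GL261 (limma adjusted p = 0.0346). Its ratio of means moved from 4.81 to 2.47 without mNS replicate 1, and its call was lost when any library but mNS replicate 3 was left out (adjusted p up to 0.110), in limma without trend (0.0502) and under quantile normalisation (0.0793).

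Enzymes that farnesylate, trim and methylate prelamin A and the B-type lamins formed a short list. Of 6 tested, 1 rose, 4 fell and 1 was not called, with a median log2 difference of -0.27. The list had 83.3% called, against 64.3% of all tested genes. Its number called was 3 without GL261 replicate 2, mNS replicate 2 or mNS replicate 3. Fntb, the catalytic-side beta subunit of farnesyltransferase, fell to 8.17 ± 0.988 CPM in mNS, against 15.9 ± 1.08 CPM in GL261. Pggt1b, the beta subunit of the related enzyme GGTase-I, fell 1.68-fold. Zmpste24, the protease that completes lamin A, fell to 129 ± 4.01 CPM in mNS, against 166 ± 20.2 CPM in GL261 (limma adjusted p = 0.00733). Rce1, a CAAX protease gene, rose to 28.5 ± 2.08 CPM in mNS, against 23.5 ± 1.41 CPM in GL261 (adjusted p = 0.0350), a call lost without any library but mNS replicate 1, with adjusted p up to 0.130, and also lost in DESeq2 (0.0520) and under quantile normalisation (0.0629).

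**Figure D4:**
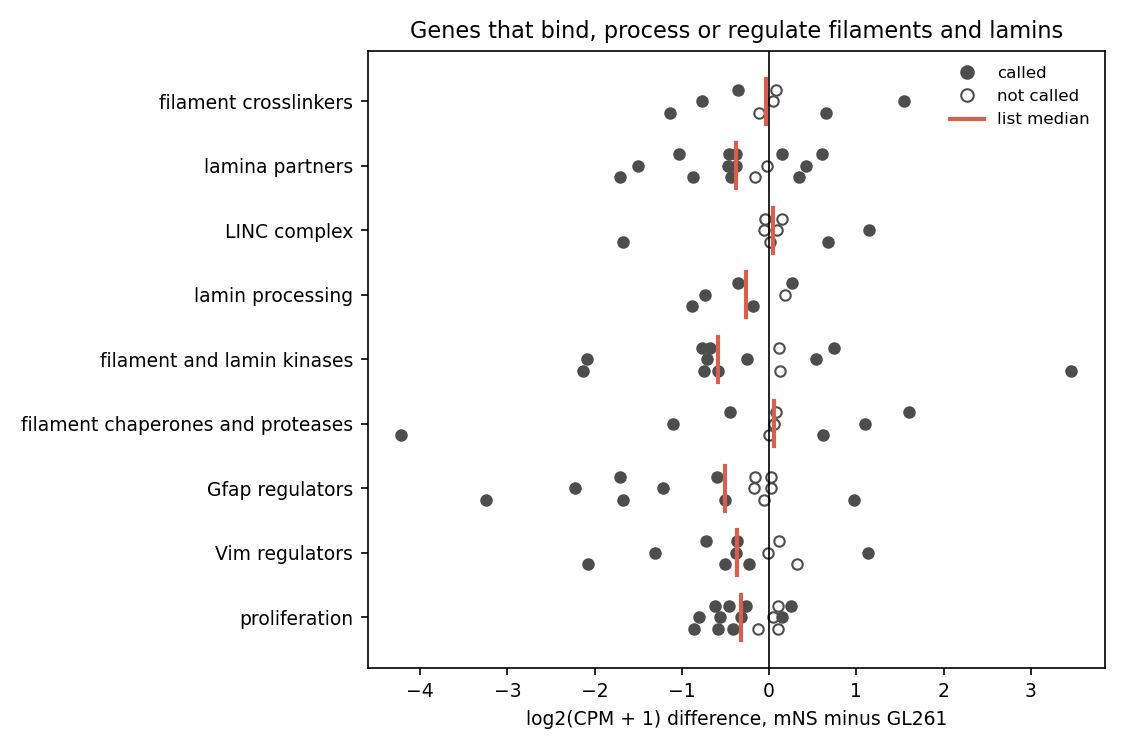
Difference in log2(CPM + 1), mNS minus GL261 (horizontal axis), for each tested gene of 9 lists (rows) of genes that bind, process or regulate filaments and lamins, or mark dividing cells. Filled points were called in limma, and red bars are list medians, which run from -0.58 for the kinases to 0.06 for the chaperones and proteases.

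Genes of kinases that loosen filaments and the lamina by phosphorylation, listed with Cdk5r1, the gene of a kinase activator, changed in both directions. Of 13 tested, 3 rose, 8 fell and 2 were not called (84.6% called, against 64.3% of all tested genes). Their median log2 difference was -0.58. Pak1, whose product phosphorylates vimentin and desmin, rose to 407, 312 and 274 CPM in mNS, against 20.4, 32.4 and 35.6 CPM in GL261 (log2 difference 3.46, limma adjusted p = 1.77e-06). Rock2, a kinase gene, fell to 212, 198 and 179.6 CPM in mNS, against 972, 816 and 733 CPM in GL261 (log2 difference -2.08, limma adjusted p = 6.89e-07). Prkca, the gene of a protein kinase C that acts on vimentin and B-type lamins, fell 4.55-fold and Camk2d 1.72-fold.

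Among chaperones, proteases and modifiers of filaments, 3 of 9 tested genes rose, 3 fell and 3 were not called. Calls made up 66.7% of them, against 64.3% of all tested genes. Cryab encodes alpha-B crystallin, a small heat shock protein that binds desmin, vimentin and GFAP filaments. It had 21.2, 23.5 and 25.3 CPM in mNS, against 578, 422 and 377 CPM in GL261, 19.6-fold lower in mNS by the means (log2 difference -4.22, limma adjusted p = 7.96e-08). Padi2, a deiminase that acts on vimentin and GFAP, fell 2.20-fold. The calpain gene Capn1 rose to 50.5 ± 5.57 CPM in mNS, against 23.0 ± 2.999 CPM in GL261.

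Genes known to regulate Gfap in astrocytes, up or down, through cytokine receptors, STAT3, BMP-Smad signalling and nuclear factor I, were counted next. Of 13 tested, 1 rose, 7 fell and 5 were not called (61.5% called, against 64.3% of all tested genes). Their median log2 difference was -0.51. Osmr, the oncostatin M receptor gene, fell to 2.87, 5.26 and 6.09 CPM in mNS, against 39.4, 60.8 and 58.1 CPM in GL261 (log2 difference -3.25, limma adjusted p = 6.72e-06). Socs3, a STAT3 target that feeds back on it, fell 5.63-fold, and the nuclear factor I genes Nfix and Nfic fell 3.93-fold and 3.36-fold. Stat3 itself had 212 ± 34.7 CPM in mNS and 207 ± 11.4 CPM in GL261 and was not called. The riser was Smad1, named after its value was seen.

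Other astrocyte markers were set beside Gfap. Of 9 astrocyte genes, 7 were tested. Among them 2 rose, 4 fell and 1 was not called (85.7% called, against 64.3% of all tested genes). Their sum was 463 to 571 CPM in mNS and 1269 to 1621 CPM in GL261. Most of that gap was Fgfr3: without it, the other 6 genes summed to 460.3 to 569.5 CPM in mNS and 581.8 to 649 CPM in GL261. Aldh1l1, a folate enzyme gene of astrocytes, had no read in mNS and 3.73, 9.94 and 10.9 CPM in GL261, lowest at passage 17 like Gfap. S100b, a calcium-binding protein gene, fell 4.31-fold and the receptor gene Fgfr3 fell 514-fold (873-fold without mNS replicate 1), while the glycolytic enzyme gene Aldoc rose 6.73-fold. The part of a change in cell state or of other cells in the level of Gfap was not tested.

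Transcription factors that act on Vim were counted in the same way. Of 11 tested, 1 rose, 7 fell and 3 were not called (72.7% called, against 64.3% of all tested genes). Their median log2 difference was -0.37. Fosl1, an AP-1 member, fell to 1.17 ± 0.105 CPM in mNS, against 8.10 ± 0.447 CPM in GL261 (limma adjusted p = 2.13e-06). Tead1 and Yap1, of the mechanosensitive Hippo pathway, fell 2.57-fold and 1.65-fold. Twist1, a mesenchymal transition factor gene, rose to 12.5 ± 1.04 CPM in mNS, against 5.19 ± 0.891 CPM in GL261.

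Genes of proliferation were set beside the B-type lamins. Of 15 tested, 2 rose, 9 fell and 4 were not called (73.3% called, against 64.3% of all tested genes). Their median log2 difference was -0.32, against -0.94 for Lmnb1 and -0.82 for Lmnb2. Mki67, the gene of the proliferation antigen Ki-67, had 847, 854 and 879 CPM in mNS, against 1520.2, 1567 and 1588 CPM in GL261 (log2 difference -0.86, limma adjusted p = 1.75e-06). Rrm2, a nucleotide reductase subunit gene, fell 1.76-fold, Top2a 1.53-fold and Cdk1, the mitotic kinase that takes the lamina apart, 1.499-fold. The summed level of the list was 5464 to 5834 CPM in mNS and 7398 to 8059 CPM in GL261. Its part in the lower level of the B-type lamins was not tested.

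Nestin is used as a marker of neural stem cells, and other such genes went both ways. Of 12 listed, 8 were tested. Among them 4 rose, 2 fell and 2 were not called (75% called, against 64.3% of all tested genes). Their sum was 1029 to 1049.6 CPM in mNS and 563 to 668 CPM in GL261. That gap rests on Olig2: without it, the other 7 genes summed to 569 to 636 CPM in mNS and 558 to 658 CPM in GL261, which overlap. The transcription factor gene Olig2 and Fabp7, which encodes a lipid carrier of radial glia, rose 51.1-fold and 27.7-fold (Fabp7 42.7-fold without GL261 replicate 1), while the Notch pathway genes Hes1 and Notch1 fell 20.7-fold and 2.93-fold.

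For each of the 7 genes, the most similar profiles were sought among up to 9453 genes averaging 10 CPM or more, by the root mean square distance between log2(CPM + 1) values centred on their mean over the 6 libraries. With only 2 groups of 3 libraries, the distance mostly reflects the difference between the groups, and it is given as a description. Nearest to Lmna was Csrp1 (distance 0.0824), with 57.9 CPM in mNS and 575 CPM in GL261 on average, followed by Olfml2a (0.127) and Hes1 (0.136). The scale understates changes of scarce genes, so near profiles can differ in fold: Hes1 averaged 1.02 CPM in mNS and 21.0 CPM in GL261. Nearest to Vim were Ccny, Mesdc2 and Zfp324 (0.0219 to 0.0233) and among the nearest to Nes were Ppp1r15a (0.0696) and Zyx (0.0723). Lmnb1 was closest to Ska1, Dym and Fndc3b (0.0374 to 0.0535), and Lmnb2 to Cdc25c, Arhgef10l and Tm9sf1 (0.0316 to 0.0419). The scarce genes had more distant neighbours: the closest to Gfap was Neurl1b at 0.134 and the closest to Des was Phactr2 at 0.175. Neurl1b averaged 7.01 CPM in mNS and 28.7 CPM in GL261, a smaller fold than that of Gfap.

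Differences between passages of a line were not tested. Within mNS, Lmnb2 ran from 90.3 to 92.8 CPM and Lmna from 46.2 to 58.9 CPM, while Nes ran from 773 CPM at passage 85 to 1222 CPM at passage 72 and Des from 6.73 CPM at passage 77 to 11.5 CPM at passage 85. Within GL261 passage 17 was the lowest library for Vim, Gfap, Lmnb1 and Lmnb2 and the highest for Nes, Des and Lmna. With that library left out, the log2 differences kept their sign and their call for all 7 genes.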

How the data were processed

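The authors deposited 1 value per gene and library, a normalised signal: per the labels and the table's name, read counts as CPM with TMM factors. Build mm10 and the tools HTSeq 0.5.3p9, TopHat2 (version 2) and edgeR 3.4.2 appear, without a stated role, in the submitters' processing notes. Column sums were not equal between libraries, as TMM scaling leaves them. Low values were whole multiples of the worth of 1 read, and 100% of values came out whole within 0.001 reads; the recovered reads gave the depth and were used for edgeR 4.0.16 and DESeq2 1.42.0 as alternatives, which called 7651 and 7353 genes.

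Groups were compared with limma 3.58.1 (R 4.3.3; two-sided, eBayes with a trend) using log2(CPM + 1). The p-values were adjusted by Benjamini-Hochberg across 12006 genes that averaged 1 CPM or more. Log2 differences are mNS minus GL261 on that scale, which understates changes of low genes; N-fold values are ratios of group means of CPM. Where a group had no read, the bound uses 3 reads per library. Intervals and bounds cover counting error only, since the spread between libraries does not enter them. They count reads and not molecules, since reads carry no molecular identifiers.

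Ratios between members were tested by exact permutation. GENCODE M21 (GRCm38, which mm10 denotes) gave positions, merged exon lengths and overlaps, and RefSeq gave promoters. The 7 genes, the 19 gene lists and the motifs were chosen with earlier results of these data known. Named were all 7 genes, up to 4 called genes with the largest differences in each list, and the 3 most similar profiles per gene; a few genes that this rule selects are not reported here. Plots were made with matplotlib 3.10.9 in Python 3.11.15. Replicates 1 to 3 are passages 72, 77 and 85 of mNS and passages 17, 33 and 34 of GL261.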

Additional observations from a re-analysis of the deposited data

How the results depend on the processing

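No paired analysis was possible because the labels give the libraries of the groups no shared replicate numbers or passages. All 7 genes kept their direction and their call under every alternative that gave a value (17 for Vim, Nes, Lmna, Lmnb1 and Lmnb2, and 16 for Gfap and Des, which fall out at a mean of at least 10 CPM). The alternatives were other pseudocounts, filters and scalings, limma without trend or with array weights, whose iteration stopped before convergence, edgeR, DESeq2 and the omission of each library. Log2 differences ranged from -3.44 to -3.27 for Lmna, from -0.88 to -0.47 for Nes (adjusted p up to 0.0314), from -5.11 to -1.66 for Gfap and from 1.81 to 2.65 for Des; the counts and low pseudocounts gave the larger sizes for the scarce genes. Rescaling to a common sum moved the median of all genes to 0.08 and the calls to 4456 higher and 3198 lower. Counts of called list genes stayed within 1.5 times for 291 pairs of a list and a setting and moved further for 14. At a mean of at least 10 CPM the count was 4 for other filaments, 1 for skeletal muscle and 1 for pericyte and smooth muscle genes; array weights gave 5 for the LINC complex and 2 for fibroblast genes, and no filter gave 2 for microglia and macrophage genes. Leaving out single libraries gave 3 to 4 for lamin processing, 1 to 2 for fibroblast and 1 to 2 for microglia and macrophage genes. The causes were not tested, except that fewer or more genes are tested under another filter. Of the 7 genes, depth limits Gfap most, with 4 reads over the mNS libraries.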

Other observations

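Markers of other cell types, listed with earlier results of these data known, give the setting of the filament genes. Of 7 neuronal genes 3 were tested and all were called, as were 64.3% of all tested genes. Tubb3, the neuronal tubulin gene, fell to 13.4, 8.51 and 4.602 CPM in mNS, against 247, 223 and 232 CPM in GL261, whereas Map2 and the synaptic gene Syt1 rose 1.59-fold and 8.33-fold. Of 8 oligodendrocyte genes 7 were tested and all were called, 4 higher and 3 lower in mNS, beside the same 64.3%. Olig1 rose 23.0-fold, the myelin gene Mbp fell 22.7-fold and Cspg4 fell 2.62-fold. Mog had 647 reads over the mNS libraries and 3 over the GL261 libraries.

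Of 7 fibroblast genes 2 were tested: the collagen gene Col1a1 fell to 6.18 ± 2.03 CPM in mNS, against 127 ± 9.75 CPM in GL261, and Col3a1, which was not called, had 85.2, 130.1 and 223 CPM in mNS, against 123, 277 and 291 CPM in GL261. Of 7 microglia and macrophage genes only Cd68 was tested, with 8.09 ± 1.32 CPM in mNS and 2.95 ± 0.156 CPM in GL261; Csf1r, below the filter, had 2 reads in mNS and 68 in GL261. None of the 6 endothelial genes was analysed here.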
